A study of Mus musculus with 27 samples.

Results

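The expressed long intergenic noncoding RNAs (lincRNAs) of the irradiated mouse intestine are described here. They are the genes annotated with the single transcript type lincRNA whose level reached 1 FPKM (fragments per kilobase of transcript, scaled to the depth of the library) in at least 3 of the 27 libraries. The rule kept 128 of 5622 lincRNA rows. Of the rows, 3829 had no count in any library and 1793 had at least 1 count. A further 39 rows reached 1 FPKM in only 1 or 2 libraries, and 12 rows that carry lincRNA beside another type also reached the level but are not members. The measured FPKM chose the members, so their levels are given as a description. Just inside the threshold lay Gm13412, which reached 1.0022 FPKM in its library of rank 3, and just outside it lay Gm12589, which reached 0.99978. A row with uneven levels could pass through the group in which it was high: 9 members passed in exactly 3 libraries, and Gm12688 and Gm30262 passed only through the libraries taken 3 d after 15 Gy.

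The samples were intestines of wild-type male C57BL/6 mice aged 6 to 8 weeks, some of them exposed to 60Co gamma rays. In all, 9 groups of 3 libraries were measured by RNA-seq of total RNA: untreated controls, 6 Gy at 6 h, 6 Gy at 24 h, 15 Gy at 6 h, 15 Gy at 24 h, 15 Gy at 3 d, CBLB502 alone at 24 h, and 6 Gy or 15 Gy with CBLB502, both at 24 h. CBLB502 is a shortened flagellin that activates Toll-like receptor 5, and it was injected into the abdominal cavity at 0.2 mg/kg. The design text names 7 of the groups, places the injection shortly before the 15 Gy exposure and speaks of a saline control, whereas the control samples are labelled as untreated. It is not stated whether each library came from a separate mouse, which stretch of intestine was taken or whether RNA was selected by its poly(A) tail, so each p-value reflects only how far libraries of a group lay apart, which may be technical.

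Total counts lay between 57.4 and 87.1 M per library, and the 128 lincRNAs together took 0.0528 to 0.272% of them. Neat1 alone held 24.7 to 58.7% of the lincRNA counts. The 7 markers of intestinal epithelium (Vil1, Cdh17, Epcam, Krt20, Fabp2, Cdx1 and Cdx2) had counts in every group. Mitochondrial transcripts took 4.59 to 28.7% of the counts. Markers of other tissues stood apart in some groups: the summed level of 12 exocrine pancreas genes was 4.30 to 7.74 CPM (counts scaled to the depth of the library, after TMM scaling, which evens out composition between libraries) in the controls, where 8 of the 12 had no count, and reached 7482 in the 6 Gy 24 h group and 2383 in the 6 Gy with CBLB502 group. In bulk tissue, fewer cells of a type and less RNA per cell cannot be told apart.

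LincRNAs are transcribed by RNA polymerase II from their own loci, are spliced and capped like messenger RNAs, and are not known to be translated into long proteins. Several act in the nucleus as scaffolds (Neat1 builds paraspeckles, Malat1 collects in splicing speckles), others bind proteins or microRNAs in the cytoplasm, and many are by-products or hosts of small RNAs processed from their introns or exons. In the intestine, ionizing radiation at high dose kills dividing crypt cells, and Neat1 is a known target of the damage-activated factor p53. For most members with a Gm or Rik name no function is established.

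Sequences that tie members to known partners are shown because several of the results below rest on these RNAs. Among the members searched, 5 have a microRNA inside on the same strand, and 1 more has microRNAs within 500 bases of it. Gm49890 on chromosome 4 spans the Mir31 gene, and Mir142hg on chromosome 11 hosts miR-142, a microRNA of blood cells. In each mature microRNA, taken from RefSeq (GRCm38.p6), capitals mark the seed, bases 2 to 8, which pairs with targets; no 2 of these seeds are the same.
mmu-miR-31-5p (chr4:88910614-88910635, minus strand): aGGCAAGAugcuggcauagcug
mmu-miR-31-3p (chr4:88910577-88910599, minus strand): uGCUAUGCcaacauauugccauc
mmu-miR-142a-5p (chr11:87756867-87756887, plus strand): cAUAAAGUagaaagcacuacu
mmu-miR-142a-3p (chr11:87756903-87756925, plus strand): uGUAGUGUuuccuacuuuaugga

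Oip5os1, also called Cyrano, is known for a conserved site that pairs with miR-7 along most of its length and leads to the decay of that microRNA. The longest GENCODE transcript of Oip5os1, 8300 bases, held 2 matches to the miR-7 seed. The match at transcript bases 2952 to 2958 was the one whose upstream flank also paired with the 3' part of miR-7a, over a run of 13 bases. At the other match, bases 762 to 768, the longest such run was 2 bases. Capitals mark the seed and its match.
mmu-miR-7a-5p: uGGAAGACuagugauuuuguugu
Oip5os1 bases 2932 to 2960: agaacaacaaaatcaccaatGTCTTCCat

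2900097C17Rik is the mouse counterpart of Norad, a cytoplasmic RNA that binds Pumilio proteins through repeated TGTANATA elements. Its transcript of 4915 bases carried 11 such elements, against at most 9 in any other member, and 25 of the 128 members had at least 1. Gm7292, with 9 in 2527 bases, had more per kilobase, 3.56 against 2.24. The stretch at bases 2436 to 2463 of 2900097C17Rik is shown with 2 elements in capitals.
2900097C17Rik bases 2436 to 2463: ctatgcTGTATATAtTGTACATActgga

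Malat1 and Oip5os1 were both low 6 h after 15 Gy, so their promoters are shown (RefSeq, GRCm38.p6, 250 bases before to 50 after the start). Capitals mark the matches to CCAAT and GGGCGG, which were searched on both strands. The motif TATAAA was searched too, as was CACGTG, as was TGACTCA, and so was the p53 half-site. Oip5os1 had 2 CCAAT and 2 GGGCGG matches and Malat1 had none of the 6 motifs. Of 32851 promoters searched, 37.4% held CCAAT and 35.7% GGGCGG. Of 75 promoters of 62 members, 40% and 25.3% did. TATAAA stood in 13.6% of all and 13.3% of member promoters, CACGTG in 7.15 and 8%, TGACTCA in 5.2 and 5.33%, and the p53 half-site in 8.36 and 8%.
Malat1 promoter (chr19:5802623-5802922, minus strand): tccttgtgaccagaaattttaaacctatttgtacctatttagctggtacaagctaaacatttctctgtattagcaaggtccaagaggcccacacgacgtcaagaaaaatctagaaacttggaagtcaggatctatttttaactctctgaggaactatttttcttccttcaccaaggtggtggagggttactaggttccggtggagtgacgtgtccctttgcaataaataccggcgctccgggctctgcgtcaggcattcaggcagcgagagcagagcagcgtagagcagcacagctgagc
Oip5os1 promoter (chr2:119594046-119594345, plus strand): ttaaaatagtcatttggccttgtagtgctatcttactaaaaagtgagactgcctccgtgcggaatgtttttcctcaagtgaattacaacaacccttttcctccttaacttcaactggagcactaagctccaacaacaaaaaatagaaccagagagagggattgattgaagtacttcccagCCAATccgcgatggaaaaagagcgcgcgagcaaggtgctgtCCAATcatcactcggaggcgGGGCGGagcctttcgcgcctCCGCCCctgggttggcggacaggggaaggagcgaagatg

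The members were weakly expressed beside coding genes. Their median of the mean FPKM was 1.11, against 4.14 for the 9353 coding genes tested, and 22 reached 1 FPKM in all 27 libraries. A set of 9 had a mean FPKM of at least 10, led by AW112010 (45.8), a transcript that also encodes a small protein of immune cells, Neat1 (30.6), Gm10076 (28.9) and Gm3054 (21.9). Next came Gm9926 (17.5), Malat1 (14.6), Gm49980 (14.4), Gm42031 (13.8) and 9130016M20Rik (12.5). The median exonic length of members was 1287.5 bases, from 141 to 20771 (Neat1), and 24 had only single-exon transcripts. In the GENCODE vM21 annotation 122 of the 128 are still lincRNA and 4 are listed as protein-coding. An exon overlap with another gene was found for 35 members, on the opposite strand for 24; the strand setting of the counting is not given in the sources used here, so reads of such pairs cannot be told apart. Some members named below passed the FPKM rule only through a few groups, among them groups where they are called higher. Gm36419 and 4930461G14Rik passed through 15 Gy at 3 d and CBLB502 alone, 1810028F09Rik and Snhg15 through both 6 Gy groups at 24 h. Gm38102, AI480526, 4932422M17Rik and Snhg20 passed only through the 4 irradiated groups at 24 h. Their rises in those groups are a description, since the rule used the same values.

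At 6 h after 15 Gy, 25 of the 128 lincRNAs (19.5%) were lower and 3 (2.34%) higher than in the controls (edgeR quasi-likelihood test, adjusted p under 0.05); among all 11118 genes tested 16.8% were lower and 12.2% higher, 29% in either direction. The members' median log2 fold change was -0.30, against 0.02 for all genes. The share lower was near that of all genes, and the share higher was below it. The falls included well-known noncoding RNAs: the paraspeckle scaffold Neat1, the speckle RNA Malat1, Oip5os1 and the Norad counterpart 2900097C17Rik. The number called was 14, all lower, when the 6 libraries were fitted alone, and 18, all lower, with limma on log2(FPKM + 1).

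Neat1 stood at 578, 609 and 1085 CPM in the controls and at 173, 190 and 156 CPM 6 h after 15 Gy, with no overlap. Its log2 fold change was -2.13 (SE 0.30, adjusted p = 2.29e-05). Malat1 measured 50.1, 49.2 and 79.5 CPM in the controls and 27.4, 22.8 and 11.2 CPM 6 h after 15 Gy, again without overlap, a change of -1.54 (SE 0.40, adjusted p = 0.006). Both genes lie side by side on chromosome 19, at chr19:5824708-5845478 and chr19:5795690-5802672, both on the minus strand.

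Oip5os1 (chr2:119594297-119607502, plus strand) had 48.5, 51.7 and 61.1 CPM in the controls and 29.1, 25.6 and 19.7 CPM 6 h after 15 Gy, a log2 fold change of -1.12 (SE 0.13, adjusted p = 3.45e-06). 2900097C17Rik (chr2:156388065-156392979, minus strand) fell from 39.8, 46.3 and 47.8 CPM to 27.7, 24.2 and 19 CPM, a change of -0.92 (SE 0.13, adjusted p = 2.21e-05). Neither RNA had a treated library as high as the lowest control.

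Another 3 members, of unknown function, fell with them. Gm15675 (chr1:130429781-130437191, minus strand) went from 12.6, 10.2 and 14.2 CPM to 3.07, 2.69 and 2.15 CPM, a log2 fold change of -2.22 (SE 0.34, adjusted p = 5.2e-05). 9130016M20Rik, a single-exon gene 1089 bases from A1cf, went from 24.0, 26.2 and 25.4 CPM to 14.6, 14.1 and 12.8 CPM, a change of -0.87 (SE 0.16, adjusted p = 0.000274). BC002059 had 2.56, 2.42 and 1.22 CPM in the controls and 0.797, 0.699 and 0.265 CPM after 15 Gy, a change of -1.81 (SE 0.33, adjusted p = 0.000311); fitted without the other groups its adjusted p was 0.0564. None of the 3 had overlapping groups.

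The 3 members that were higher at this time were Gm27033, 2010308F09Rik and Gm36419. All were close to the threshold, with adjusted p of 0.0444, 0.0492 and 0.0402, and each call was lost without any of several single libraries, the highest adjusted p over the alternatives being 0.493, 0.15 and 0.678. For 2010308F09Rik leaving out any 1 of the 6 libraries ended the call. Leaving out control library 1 or 2, or 15 Gy 6 h library 1 or 3, ended that of Gm27033, and leaving out any control library or 15 Gy 6 h library 3 that of Gm36419.

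**Figure D1:**
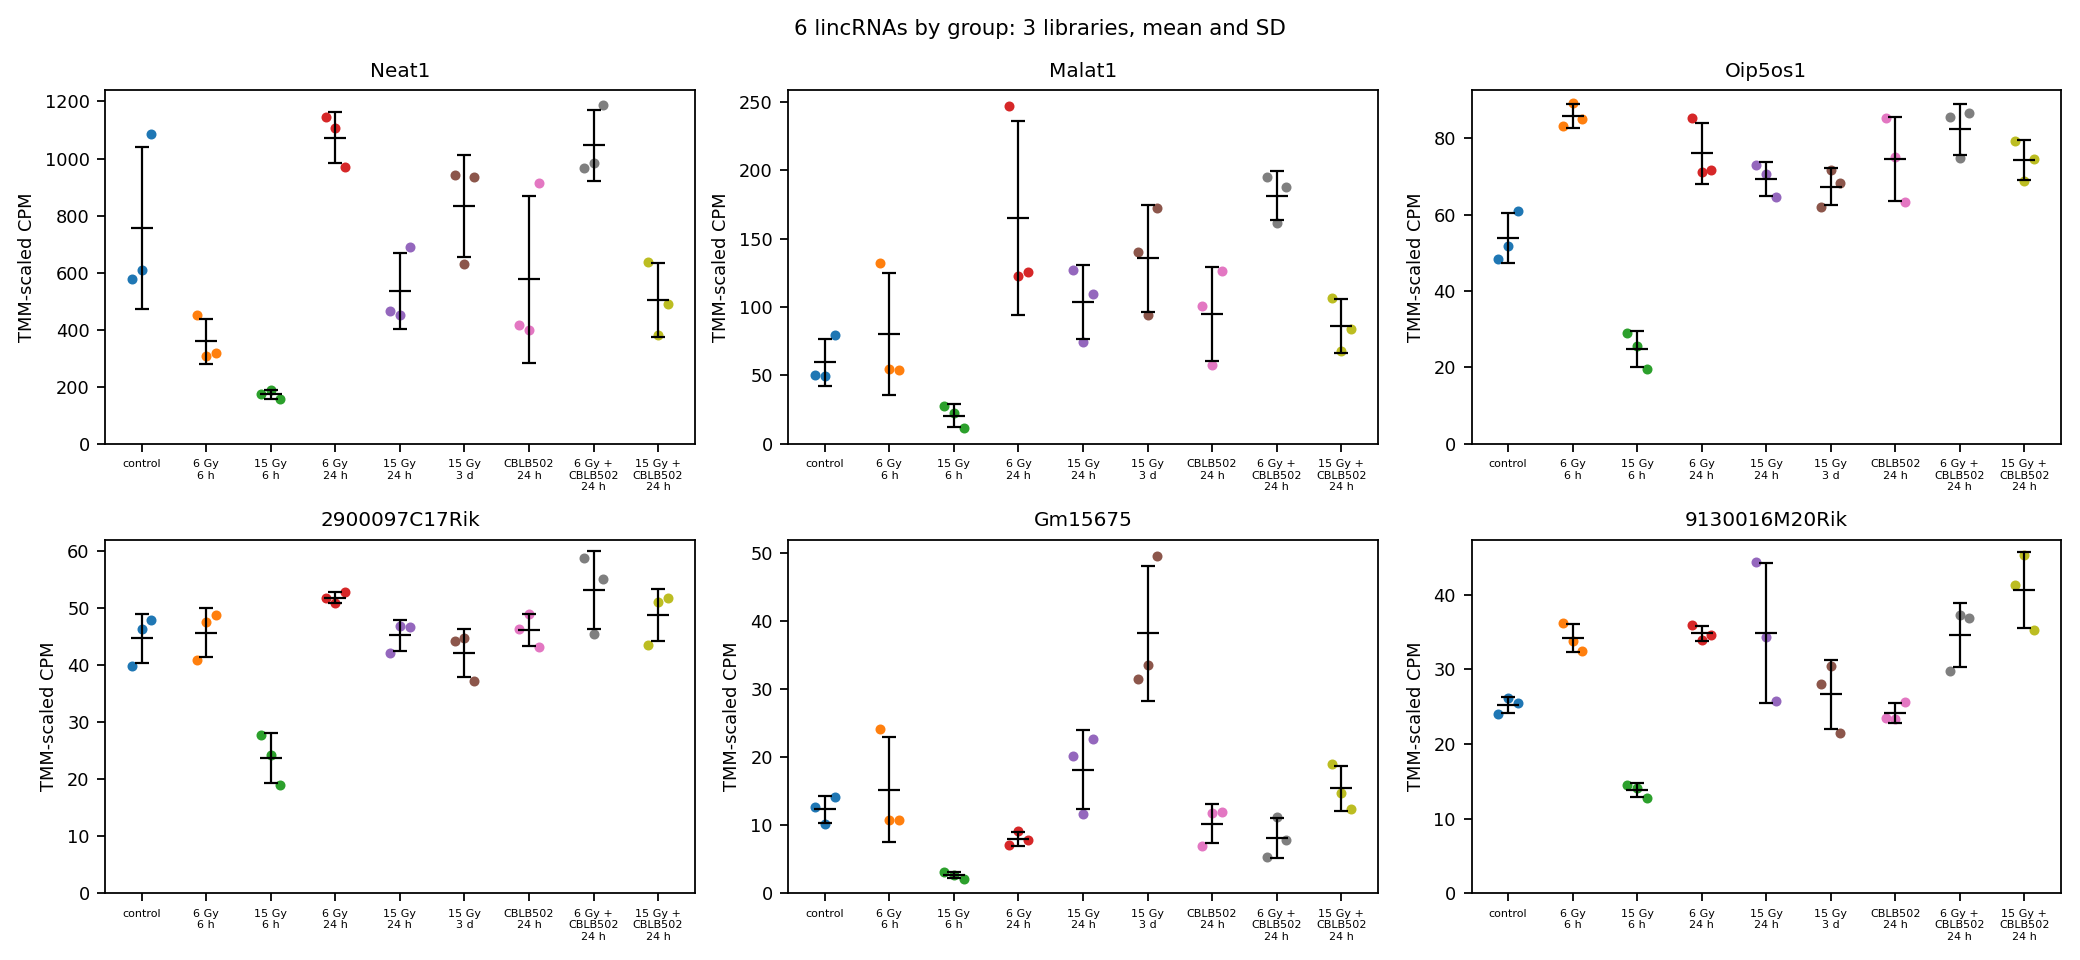
Level in TMM-scaled CPM (vertical axes from 0) of Neat1, Malat1, Oip5os1, 2900097C17Rik, Gm15675 and 9130016M20Rik in the 9 groups. Points are the 3 libraries of a group and bars the mean with its SD; in each panel the 15 Gy 6 h group lies lowest.

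Of the other genes on the lists used here, only Tug1, Firre and Mir22hg were also lower, where 16.8% of all genes were lower. Neat1, Tug1 and Mir22hg are counted on 2 lists each. Of 17 nuclear and chromatin-bound RNAs listed, 4 were tested (Malat1, Neat1 and, with other transcript types, Tug1 and Firre), and all 4 were lower 6 h after 15 Gy, with a median of -1.84; Tug1 changed by -1.24 (SE 0.21) and Firre by -2.32 (SE 0.56). Of 6 tested RNAs linked to p53 or DNA damage, Neat1, 2900097C17Rik, Tug1 and Mir22hg were lower and Snhg15 and Gas5 were not called (median -0.97). None of 11 tested snoRNA host genes was called at this time (median -0.11), and of 2 microRNA host genes Mir22hg was lower. Among 5 other named RNAs only Oip5os1 was called. These lists were chosen with earlier results of the same libraries known.

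The lincRNAs that fell 6 h after 15 Gy were longer and poorer in G and C than those not called. The 25 had a median longest transcript of 2194 bases with 42.6% GC and 1.42 ATTTA pentamers per kilobase; the 100 not called had medians of 900.5 bases, 49.8% and 0.558 per kilobase. The other genes tested differed in the same direction: 1842 lower genes had medians of 4033.5 bases, 43% GC and 1.61 pentamers per kilobase, and 7793 not called had 2547 bases, 50.6% and 0.634. The 1349 higher genes stood at 2611 bases, 54.8% and 0.355. The part of length and base composition in the calls was not tested. At this time the 6 enterocyte markers summed to 81038 to 99281 CPM, against 52282 to 64533 CPM in the controls. Most of that sum was Apoa4, with a mean of 69191 CPM against 39605 CPM. Lct, Alpi and Mttp were also higher in mean, Fabp1 was level, and Sis fell from 5715 to 2158 CPM. The 7 epithelial markers summed to 19642 to 26388 CPM, against 25259 to 32967 CPM. Mitochondrial transcripts took 4.59 to 9.03% of the counts, against 11.8 to 17.8%. The enterocyte sums and mitochondrial shares did not overlap those of the controls. The part of all of these in the falls was not tested.

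**Figure D2:**
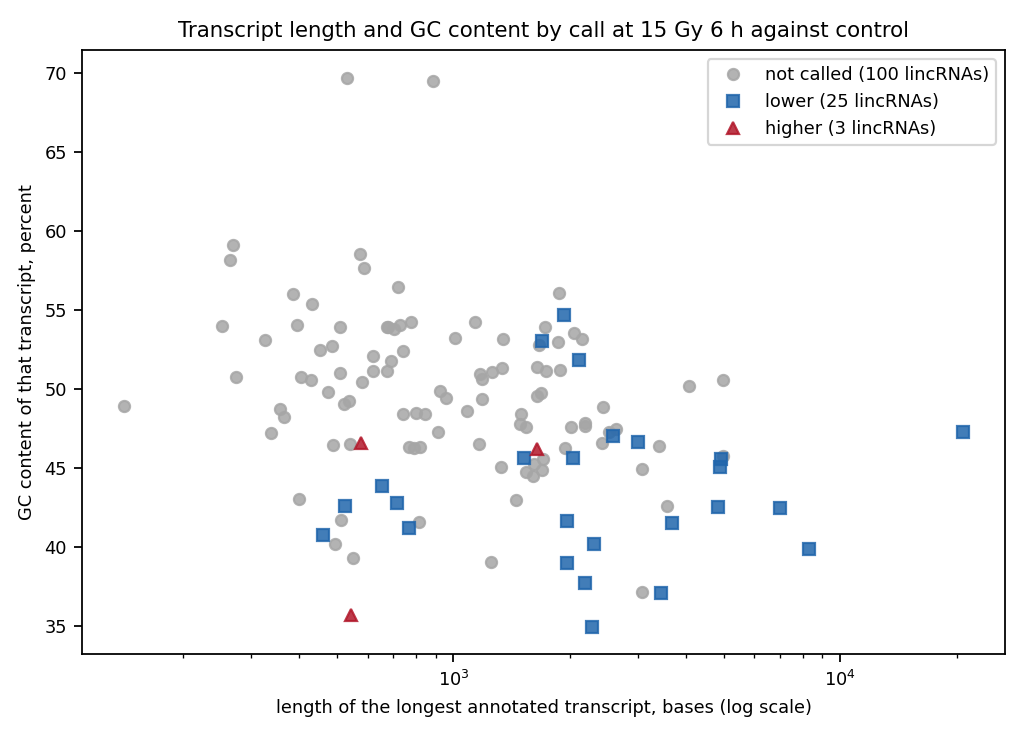
Each point is 1 of the 128 lincRNAs, placed by the length of its longest annotated transcript (bases, log scale) and the GC content of that transcript (percent), with the call at 15 Gy 6 h against control. The 25 lower lincRNAs (squares) have a median length of 2194 bases and 42.6% GC; the 100 not called (circles) have 900.5 bases and 49.8%.

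Between 6 h and 24 h after 15 Gy, 32 of the 128 rose and 4 fell, where 18.7% of all genes rose and 13.5% fell, 32.2% in either direction. Malat1 reached 127, 74.3 and 110 CPM at 24 h (log2 fold change 2.34 from 6 h, SE 0.41, adjusted p = 0.000161), and Neat1 465, 451 and 690 CPM (1.63, SE 0.30, adjusted p = 0.000282). Oip5os1 reached 73.1, 70.6 and 64.5 CPM (1.49, SE 0.14, adjusted p = 1.58e-07), above each of its control libraries, and 2900097C17Rik 42.0, 46.8 and 46.7 CPM (0.93, SE 0.13, adjusted p = 1.54e-05), within their range. All 3 libraries at 24 h lay above all 3 at 6 h for each of the 4 RNAs. The 4 that fell were 5033430I15Rik, Gm9895 and, named after their values were seen, 2700033N17Rik and Tbx3os2, with changes of -1.11, -0.84, -1.20 and -1.11. The calls of all but Gm9895 were lost without 15 Gy 24 h library 3; those of 5033430I15Rik and 2700033N17Rik also without 15 Gy 6 h library 2, that of 5033430I15Rik without 15 Gy 24 h library 2, that of 2700033N17Rik without 15 Gy 6 h library 1 or 15 Gy 24 h library 1, and that of Tbx3os2 without 15 Gy 6 h library 3. The count was 18, all higher, when the 6 libraries were fitted alone and 22 (18 higher) over genes with a mean of at least 1 FPKM. The 10 clock genes measured summed to 381 to 560 CPM at 6 h and 238 to 327 CPM at 24 h. Mean Arntl, Npas2 and Nfil3 rose over this time and the others fell. The part of the clock genes in these changes was not tested.

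Against 6 Gy at the same time of 6 h, 15 Gy left 36 of the 128 lower and 15 higher, where 23% of all genes were lower and 20.2% higher, 43.2% in either direction; this comparison does not use the controls. The 10 clock genes summed to 173 to 239 CPM at 6 Gy and 381 to 560 CPM at 15 Gy. Mean Arntl, Npas2 and Nfil3 were lower at 15 Gy and the others higher. The part of the clock genes in the differences was not tested. Oip5os1 lay on opposite sides of the controls: 6 Gy libraries had 83.1, 89.1 and 85.1 CPM, above every control, and 15 Gy libraries were below every control, a difference of -1.79 (SE 0.14, adjusted p = 4.81e-09). Among the RNAs lower at 15 Gy were Gm15675 (-2.53, SE 0.35), BC002059 (-2.57, SE 0.34), 9130016M20Rik (-1.31, SE 0.16) and 2900097C17Rik (-0.95, SE 0.13). Mir142hg had 1.44, 1.23 and 1.45 CPM at 6 Gy and 0.627, 0.390 and 0.641 CPM at 15 Gy (-1.31, SE 0.33, adjusted p = 0.00318). Over genes with a mean of at least 1 FPKM the count was 30 instead of 51.

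Of the RNAs higher at 15 Gy than at 6 Gy, Gm33370, Gm12596 and Gm49282 lay below every control in the 6 Gy libraries. Gm33370 had 0.389, 0.414 and 0.460 CPM at 6 Gy, 1.41, 1.89 and 1.80 CPM at 15 Gy and 1.05, 1.02 and 0.775 CPM in the controls (difference between doses 2.01, SE 0.35, adjusted p = 9.66e-05). Gm12596 had 0.237, 0.301 and 0.406 CPM at 6 Gy against 0.758, 1.22 and 0.837 CPM (1.57, SE 0.42, adjusted p = 0.00466). Gm49282 had 1.66, 1.25 and 1.18 CPM against 2.93, 3.59 and 3.35 CPM (1.27, SE 0.32, adjusted p = 0.00321). Dose groups did not overlap for any of the 3.

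At 6 h after 6 Gy, 13 of the 128 were higher and 19 lower than in the controls, near the shares of all genes (13.1% higher, 15.3% lower, 28.4% in either direction). Oip5os1 rose by a log2 fold change of 0.67 (SE 0.13, adjusted p = 0.000637), and 9130016M20Rik by 0.44 (SE 0.16, adjusted p = 0.0382), a call that any 1 of its 6 libraries ended when left out, with adjusted p up to 0.172. Neat1 was lower, at 450, 308 and 319 CPM (-1.08, SE 0.30, adjusted p = 0.00877); without control library 3, the highest, the change was -0.72 with an adjusted p of 0.0753. Malat1, at 132, 54.6 and 54.2 CPM, overlapped the controls. The 10 clock genes measured summed to 173 to 239 CPM in this group and 490 to 593 CPM in the controls. Mean Arntl (4.11 to 21.2 CPM), Npas2 (27.5 to 44.2 CPM) and Nfil3 (1.52 to 11.6 CPM) rose from the controls, and the others fell. The part of the clock genes in the changes was not tested. The 7 epithelial markers summed to 13999 to 18497 CPM, against 25259 to 32967 CPM in the controls, though mean Cdx1 and Cdx2 were higher. The 6 enterocyte markers summed to 30235 to 35864 CPM, against 52282 to 64533 CPM. The 5 enteroendocrine markers summed to 301 to 320 CPM, against 91.25 to 165 CPM, though mean Gcg was lower. Proximal small intestine sums overlapped, with mean Cyp2b10 lower and Gata4, Pdx1, Onecut2 and Adh6a higher. The part of these in the changes was not tested. Calls fell to 17 without control library 1, 20 without control library 2, 19 without 6 Gy 6 h library 2 and 18 with the 6 libraries fitted alone.

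AI427809, Gm47507 and Gm49282 also fell at this time and dose. AI427809 had 10.8, 13.7 and 11.0 CPM in the controls and 3.94, 3.96 and 4.05 CPM after 6 Gy (log2 fold change -1.57, SE 0.45, adjusted p = 0.0109). Gm47507 had 1.03, 1.51 and 0.865 CPM and then 0.237, 0.314 and 0.298 CPM (-2.0, SE 0.49, adjusted p = 0.00403). Gm49282 had 3.82, 4.54 and 2.09 CPM in the controls (-1.35, SE 0.33, adjusted p = 0.00338). All 9 control values lay above the 6 Gy values of the same gene.

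Gm49890, the lincRNA that spans Mir31 (chr4:88909855-88938521, minus strand), was present or absent by library. The controls had 9.25, 8.89 and 1.88 CPM, and none of the 3 libraries at 6 h after 6 Gy had a count, so that its level was at least 473-fold lower (3 counts over the group as floor; adjusted p = 0.0156). Likewise 2 of 3 libraries 6 h after 15 Gy (5.36, 0 and 0 CPM) and 2 of 3 with CBLB502 alone (11.8, 0 and 0 CPM) also had no count. In the 6 Gy 24 h group it stood at 18.8, 17.2 and 2.20 CPM, in the 15 Gy 24 h group at 11.2, 19.3 and 0.761 CPM, and 3 d after 15 Gy at 9.92, 8.81 and 7.41 CPM. With CBLB502 the values were 13.6, 17.7 and 14.5 CPM for 6 Gy and 16.8, 18.9 and 22.9 CPM for 15 Gy, the only groups in which all 3 libraries lay above all controls. The fall after 6 Gy was not called without 6 Gy 6 h library 2 or 3, nor with limma on log2(FPKM + 1), with adjusted p up to 0.0555.

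At 24 h the 2 doses differed in how many lincRNAs stood apart from the controls, though the doses were not tested against each other at this time. After 6 Gy, 19 of the 128 were higher and 11 lower (16.6% and 16.4% of all genes, 33% in either direction), and with CBLB502 added 20 were higher and 17 lower (19.8% and 17.5%, together 37.3%). After 15 Gy, 3 were higher and none lower (2.63% and 2.31% of all genes, together 4.94%), with 31 members at an unadjusted p under 0.05; DESeq2 called 7 higher and 5 lower. With CBLB502 added to 15 Gy, 15 were higher and 9 lower (8.65% and 8.2%, together 16.9%). These 4 comparisons share their controls. The 15 Gy count was 1 without control library 1, 6 without control library 3, and 1, Gm19696, with the 2 groups alone; over genes with a mean of at least 1 FPKM the count for 6 Gy with CBLB502 was 24.

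Scaling bears on both 6 Gy groups at 24 h. On the deposited FPKM scale the median of all genes lay above the controls by 0.45 (6 Gy) and 0.47 (6 Gy with CBLB502) on the log2(FPKM + 1) scale, and by 0.62 and 0.65 with a pseudocount of 0.1. With those values limma called 48 higher and 9 lower, or 49 and 10, for 6 Gy, and 51 and 11, or 50 and 13, for 6 Gy with CBLB502. The fold changes given here are on the TMM scale, where the median of all genes was 0.07 in both.

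Gm19696 (chr17:84134033-84139841, minus strand), a spliced RNA 44090 bases from Zfp36l2, was higher at 24 h in all 4 irradiated groups. It had 1.20, 1.53 and 1.98 CPM in the controls, 7.08, 5.30 and 7.64 CPM after 6 Gy and 8.36, 8.54 and 9.97 CPM after 15 Gy. With CBLB502 it had 4.48, 4.68 and 6.01 CPM (6 Gy) and 9.59, 9.27 and 11.1 CPM (15 Gy). The log2 fold changes were 2.09 (SE 0.26, adjusted p = 2.05e-05), 2.51 (SE 0.27, adjusted p = 1.77e-05), 1.69 (SE 0.26, adjusted p = 9.81e-05) and 2.67 (SE 0.27, adjusted p = 5.2e-06), and each was called under every alternative. With CBLB502 alone it had 2.16, 1.02 and 2.46 CPM, which overlapped the controls. By 3 d after 15 Gy it was down to 3.10, 2.62 and 2.92 CPM (-1.64 from 24 h, SE 0.26, adjusted p = 8.85e-05).

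A group of 3 lincRNAs at 1 locus beside Setd1b, a gene for a histone H3 lysine 4 methyltransferase, rose together at 24 h. AI480526 (chr5:123133723-123141666, minus strand) shares exon sequence with Gm38102 and with 4932422M17Rik on the other strand, so its reads cannot be told apart from theirs without strand; AI480526 and 4932422M17Rik were named after their values were seen. Gm38102 had 0.740, 1.39 and 1.31 CPM in the controls and 7.72, 6.81 and 6.87 CPM 24 h after 6 Gy (log2 fold change 2.63, SE 0.40, adjusted p = 0.000122). AI480526 had 2.0, 2.22 and 2.33 CPM and then 8.15, 9.95 and 10.5 CPM (2.12, SE 0.26, adjusted p = 1.52e-05). 4932422M17Rik had 0.709, 0.696 and 1.12 CPM and then 7.74, 8.51 and 6.81 CPM (3.19, SE 0.36, adjusted p = 6.82e-06). No treated library came near the controls for any of the 3. Setd1b itself changed by 0.45 (SE 0.18, adjusted p = 0.0627).

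The same 3 RNAs were higher with CBLB502 added to 6 Gy (2.84, 2.14 and 3.12 for Gm38102, AI480526 and 4932422M17Rik) and to 15 Gy (1.66, 1.51 and 2.07). At 24 h after 15 Gy alone AI480526 (1.10, adjusted p = 0.0155) and 4932422M17Rik (1.54, adjusted p = 0.0123) were the other 2 members called beside Gm19696. Both calls were lost without control library 1, that of AI480526 also without 15 Gy 24 h library 3 and that of 4932422M17Rik also without control library 2 or 15 Gy 24 h library 2, with adjusted p up to 0.206 and 0.163. At 6 h after 15 Gy, Gm38102 (-1.33, SE 0.40, adjusted p = 0.017) and AI480526 (-1.47, SE 0.26, adjusted p = 0.000243) were lower; the call of Gm38102 was lost without control library 2 or 15 Gy 6 h library 2, with adjusted p up to 0.257 over all alternatives.

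SnoRNA host genes carry in their introns small nucleolar RNAs that guide ribosomal RNA modification. Of 22 listed, 11 were tested. Of these 11, 6 were higher 24 h after 6 Gy, none was lower and 5 were not called, where 16.6% of all genes were higher. The median log2 fold change was 0.85, against 0.07 for all genes. With CBLB502 added 7 of the hosts were higher and none lower (median 1.22), where 19.8% of all genes were higher. The lincRNA hosts among them were Snhg15, Snhg20 and Epb41l4aos in both groups and Snhg6 with CBLB502; the others were Gas5, Zfas1 and Snhg8. Snhg15 had 0.494, 0.375 and 0.656 CPM in the controls, 2.79, 1.21 and 2.60 CPM after 6 Gy and 3.13, 1.27 and 2.65 CPM with CBLB502 (2.11, SE 0.62, adjusted p = 0.0125, and 2.21, SE 0.62, adjusted p = 0.00865). Snhg20 had 1.51, 1.65 and 3.29 CPM in the controls and 5.67, 4.95 and 4.71 CPM after 6 Gy (1.25, SE 0.41, adjusted p = 0.0244). No treated library of either gene overlapped the controls. Snhg15 passed the FPKM rule only through the 2 groups of 6 Gy at 24 h, and Snhg20 only through the 4 irradiated groups at 24 h. Their rises, and the counts of hosts that include them, are therefore a description. Without control library 2 the adjusted p of Snhg15 after 6 Gy was 0.0559; the call of Snhg20 was lost without control library 1 or 2 or 6 Gy 24 h library 1, with adjusted p up to 0.0991, and that of Epb41l4aos without control library 1 or 2 (up to 0.066).

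Among the falls 24 h after 6 Gy, 3300005D01Rik and Gm10522 were the deepest. 3300005D01Rik had 19.1, 10.7 and 8.86 CPM in the controls, 0.189, 0.546 and 0.483 CPM after 6 Gy and 0.166, 0.563 and 0.0248 CPM with CBLB502, log2 fold changes of -4.98 (SE 1.06, adjusted p = 0.00155) and -5.68 (SE 1.11, adjusted p = 0.00065). Gm10522 had 2.25, 1.98 and 0.507 CPM in the controls and 0, 0.0364 and 0 CPM after 6 Gy (-6.79, SE 1.59, adjusted p = 0.003), which is 3 counts in the group. AW112010, the lincRNA with the highest mean FPKM, fell from 71, 73.2 and 52.3 CPM to 29.6, 31.6 and 28.1 CPM (-1.14, SE 0.26, adjusted p = 0.00263) and to 23.0, 40.6 and 27.6 CPM with CBLB502 (-1.11, SE 0.26, adjusted p = 0.00264). 5033430I15Rik (-1.94, SE 0.41) and Tbx3os2 (-1.70, SE 0.33), a neighbour of Tbx3 named after its values were seen, also fell. No library of these groups reached the lowest control value of its gene.

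The 6 Gy libraries at 24 h, with or without CBLB502, also carried more RNA of exocrine pancreas, fibroblast, and B and plasma cell markers. The exocrine pancreas sum ran from 70.8 to 7482 CPM after 6 Gy and from 235 to 2383 CPM with CBLB502. The 6 fibroblast markers summed to 32.2 to 44.1 and 30.4 to 43.2 CPM, against 0.562 to 3.07 CPM in the controls, where Lum had no count. The 5 B and plasma cell markers summed to 30.6 to 147 and 48.7 to 254 CPM, against 10.3 to 28.6 CPM. Markers of the epithelium itself differed too. The 5 Paneth cell markers summed to 136 to 770 and 291 to 892 CPM, against 44.9 to 98.4 CPM. The 7 epithelial markers summed to 12040 to 14080 and 10495 to 13993 CPM, against 25259 to 32967 CPM, though mean Cdx1 was higher. The part of these tissues and cells in the lincRNA changes was not tested. For 1 member the values of each library are given beside those of a pancreatic gene. 1810028F09Rik, 881 bases from the pancreatic ribonuclease gene Rnase1, had 0.444, 3.81 and 0.343 CPM after 6 Gy, highest in library 2, and Rnase1 had 11.3, 149 and 6.28 CPM. The rise of 1810028F09Rik (4.12, SE 1.14, adjusted p = 0.00907) was 2.17 with an adjusted p of 0.122 without that library. It passed the FPKM rule only through these 2 groups, so its rise is a description. The part of pancreatic RNA in it was not tested.

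At 3 d after 15 Gy, 17 of the 128 were higher and 13 lower than in the controls (13.9% and 15.6% of all genes, 29.4% in either direction). Among them were 2 RNAs without a count in the controls. Gm36419 (chr19:32543348-32563611, plus strand) had no count in any control and 16.9, 13 and 1.87 CPM at 3 d, at least 730-fold higher (adjusted p = 0.00241). 4930461G14Rik had no count in the controls, at 6 h after either dose or at 24 h after 15 Gy, and 1.72, 1.26 and 3.28 CPM at 3 d, at least 144-fold higher than the controls (adjusted p = 0.00265). Both calls held under every alternative that tested the gene. With a mean under 1 FPKM, 4930461G14Rik was not tested under the filter on the mean FPKM. Both RNAs passed the FPKM rule only through libraries of this group and of CBLB502 alone. Without control library 1 or 2 or 15 Gy 3 d library 1, the number called was 19, 18 or 17, and it was 16 with the 6 libraries fitted alone.

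Gm15675 and Gm45495 moved in opposite directions at 3 d. Gm15675, low at 6 h, had 31.5, 33.5 and 49.6 CPM, above every other library of the series (1.63 against the controls, SE 0.33, adjusted p = 0.000871). Gm45495 had 2.07, 1.49 and 4.23 CPM in the controls and 0.370, 0.633 and 0.979 CPM at 3 d (-1.97, SE 0.45, adjusted p = 0.00227). 4930528H21Rik had 0.247, 0.509 and 0.999 CPM in the controls and no count at 3 d, at least 48.4-fold lower (adjusted p = 0.00231). Gm49282 was also lower, at 1.54, 0.950 and 1.65 CPM (-1.33, SE 0.32, adjusted p = 0.00386), but not with the 2 groups fitted alone (adjusted p 0.0521).

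Snhg15 (2.36, 2.32 and 2.09 CPM; 2.15, SE 0.62) and Snhg6 (2.07, 2.35 and 2.63 CPM; 1.47, SE 0.44) were higher at 3 d, with Gas5 and Snhg8 among the 11 snoRNA hosts tested. Both lincRNA calls were lost without control library 2, with adjusted p of 0.0533 and 0.0797. Mir142hg, the host of the miR-142 sequences above, was lower at 3 d (0.370, 0.418 and 0.483 CPM, against 0.925, 0.870 and 1.04 CPM; -1.16, SE 0.34, adjusted p = 0.013). Without 15 Gy 3 d library 1 the call of Mir142hg was lost (adjusted p up to 0.0668 over the alternatives). The 5 T cell markers summed to 28.9 to 41.2 CPM at 3 d and 47.0 to 96.2 CPM in the controls. The B and plasma cell sums, 7.88 to 37.2 CPM against 10.3 to 28.6 CPM, overlapped. So did those of macrophages and neutrophils, 9.17 to 14.1 CPM against 5.45 to 9.45 CPM. The part of these cells in the fall of Mir142hg was not tested.

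Markers of gut position and cell type moved at 3 d as well. The 5 markers of the proximal small intestine summed to 444 to 681 CPM, against 1155 to 1776 CPM in the controls. Mean Cyp2b10 fell from 634 to 23.5 CPM and Adh6a from 678 to 349 CPM, while Gata4 went from 122 to 108 CPM. Pdx1 (0.778 to 11.2 CPM) and Onecut2 (22.9 to 42.6 CPM) were higher in mean. The 4 colon markers summed to 3.23 to 10.4 CPM, against 56.8 to 328 CPM, with Car1 at 0 in both groups. Most of the colon sum in the controls was Car4, whose mean fell from 161 to 3.30 CPM. The 5 Paneth cell markers summed to 389 to 836 CPM, against 44.9 to 98.4 CPM. The 10 clock genes summed to 184 to 198 CPM, against 490 to 593 CPM, with mean Arntl, Npas2 and Nfil3 higher and the others lower. The part of these in the lincRNA changes at 3 d was not tested.

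From 24 h to 3 d after 15 Gy, 6 of the 128 rose and 16 fell (11.2% and 14.1% of all genes, 25.3% in either direction). 4930461G14Rik rose at least 153-fold (adjusted p = 0.00275), and 4930528H21Rik fell at least 65.7-fold from 0.235, 0.977 and 1.17 CPM (adjusted p = 0.00165). Gm45495 fell by 1.81 on the log2 scale (SE 0.45, adjusted p = 0.00468). The count was 13 without 15 Gy 24 h library 2 or without 15 Gy 3 d library 3, and 11 with the 2 groups alone.

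At 24 h after CBLB502 alone, 8 of the 128 were higher and 2 lower (2.48% and 3.26% of all genes, 5.74% in either direction). The higher ones were Gm27033, 2010308F09Rik, Gm36419, 4930461G14Rik and Oip5os1 and, named after their values were seen, 6430710C18Rik, Gm20939 and 9630028B13Rik; the lower ones were Gm48228 and Gm32391. 2010308F09Rik had 0.463, 0.723 and 0.701 CPM in the controls and 4.02, 1.90 and 3.60 CPM with CBLB502 (2.33, SE 0.47, adjusted p = 0.00708). Oip5os1 had 85.2, 75.1 and 63.4 CPM, all above its controls (0.47, SE 0.13, adjusted p = 0.0401). No member was called without control library 1 or with the 2 groups alone, the count was 3 without control library 2 or CBLB502 library 2, and limma on log2(FPKM + 1) called 6. Leaving out CBLB502 library 1 also ended the call of Oip5os1, with adjusted p up to 0.25 over the alternatives.

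Adding CBLB502 to radiation gave no called lincRNA at either dose. With edgeR, 0 of the 128 passed for 15 Gy (0% of all genes; 14 members at an unadjusted p under 0.05) and 0 for 6 Gy (0% of all genes; 6 members). DESeq2 called 2 members lower for 15 Gy, AI427809 and Gm10522, and without 15 Gy 24 h library 2 edgeR called 1, 2700033N17Rik, higher; for 6 Gy no alternative, DESeq2 and limma included, called any. AI427809 had 12.5, 4.20 and 4.69 CPM after 15 Gy and 2.85, 1.81 and 2.13 CPM with CBLB502, against 15.3, 6.5 and 6.23 CPM with CBLB502 alone. Its 15 Gy groups did not overlap, and its smaller difference at 6 Gy had the opposite sign, with 1.32, 5.10 and 2.62 CPM without and 4.93, 3.67 and 5.37 CPM with CBLB502.

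The effect of CBLB502 differed between irradiated and unirradiated intestine for 1 lincRNA. At 15 Gy the interaction called none (0.153% of all genes were higher and 0.072% lower, 0.225% in either direction; 12 members at an unadjusted p under 0.05). DESeq2 and limma, with either pseudocount, each called 1, Gm48228. At 6 Gy it called 0 higher and 1 lower (0.243% and 0.0809%, together 0.324%), 2010308F09Rik. That RNA was raised by CBLB502 alone, and had 0.997, 0.655 and 0.927 CPM after 6 Gy and 0.456, 0.710 and 0.148 CPM after 6 Gy with CBLB502, an interaction of -3.30 (SE 0.66, adjusted p = 0.0313). With 15 Gy and CBLB502 it had 1.72, 1.56 and 2.40 CPM. The 6 Gy call was lost without control library 1 or 2, 6 Gy 24 h library 1 or 3, CBLB502 library 1, or 6 Gy with CBLB502 library 1 or 3, with no filter, with the compared groups alone and with a replicate block, with adjusted p up to 0.113. Without CBLB502 library 3 a further member, 9630028B13Rik, was called.

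Some lincRNAs moved with a coding neighbour over the groups. Gm27033, a single-exon RNA 4872 bases from Pdx1 (chr5:147280720-147281263, plus strand), was at 0, 0 and 0.0745 CPM in the controls and was higher in 7 of the 8 comparisons with them. It had 0.439, 2.53 and 1.99 CPM 6 h after 6 Gy (5.99, SE 1.28, adjusted p = 0.00129), 1.74, 0.534 and 1.63 CPM 24 h after 6 Gy and 2.32, 0.472 and 0.854 CPM with 15 Gy and CBLB502. Pdx1, a transcription factor of the duodenum and pancreas, had 0.463, 0.455 and 1.42 CPM in the controls and 4.94, 38.2 and 41.8 CPM 6 h after 6 Gy (5.19, SE 1.37, adjusted p = 0.00683). In both genes library 1 of that group was the lowest. The call of Gm27033 was lost without control library 1 or 2 for 15 Gy at 6 h, 15 Gy at 3 d and CBLB502 alone, and also without 15 Gy 6 h library 1 or 3 and without 15 Gy 3 d library 1 or 2 in those comparisons. It was kept in every alternative for 6 Gy at 6 h and for 6 Gy at 24 h, 6 Gy with CBLB502 and 15 Gy with CBLB502.

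AI427809 (chr4:53261356-53270232, minus strand) and Abca1, the cholesterol exporter gene 101461 bases away on the same strand, were both low in some groups. Abca1 had 180, 173 and 145 CPM in the controls and 60.1, 42.8 and 41.0 CPM 6 h after 6 Gy (-1.79, SE 0.42, adjusted p = 0.00276). At 24 h after 15 Gy with CBLB502, AI427809 changed by -2.39 (SE 0.46, adjusted p = 0.00153) and Abca1, at 36.7, 16.1 and 14.5 CPM, by -2.89 (SE 0.44, adjusted p = 0.000252). They parted with CBLB502 alone, where Abca1 fell to 36.3, 30.3 and 50.5 CPM (-2.09, adjusted p = 0.00702) and AI427809, at 15.3, 6.5 and 6.23 CPM, overlapped the controls (-0.34, adjusted p = 0.713); the difference between the 2 genes was not tested.

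Gm19696 and Zfp36l2, an RNA-binding protein that promotes decay of messages, were both higher at 24 h, but Zfp36l2 stayed up when the lincRNA fell back. Zfp36l2 had 11.8, 15.0 and 15.6 CPM in the controls and 54.3, 49.7 and 53.3 CPM 3 d after 15 Gy (1.89, SE 0.24, adjusted p = 7.81e-06), while Gm19696 was at 3.10, 2.62 and 2.92 CPM there (0.87, SE 0.26, adjusted p = 0.0144; 0.0701 at most over the alternatives, lost without control library 1). Gm15675 lies 1836 bases from Cd55, a complement regulator, which did not pass the test when the lincRNA fell 6 h after 15 Gy (57.2, 92.4 and 71.2 CPM against 106, 116 and 64.2 CPM; -0.38, SE 0.21, adjusted p = 0.195). At 3 d both were higher, Cd55 at 172, 180 and 228 CPM (1.02, SE 0.21, adjusted p = 0.00119).

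**Figure D3:**
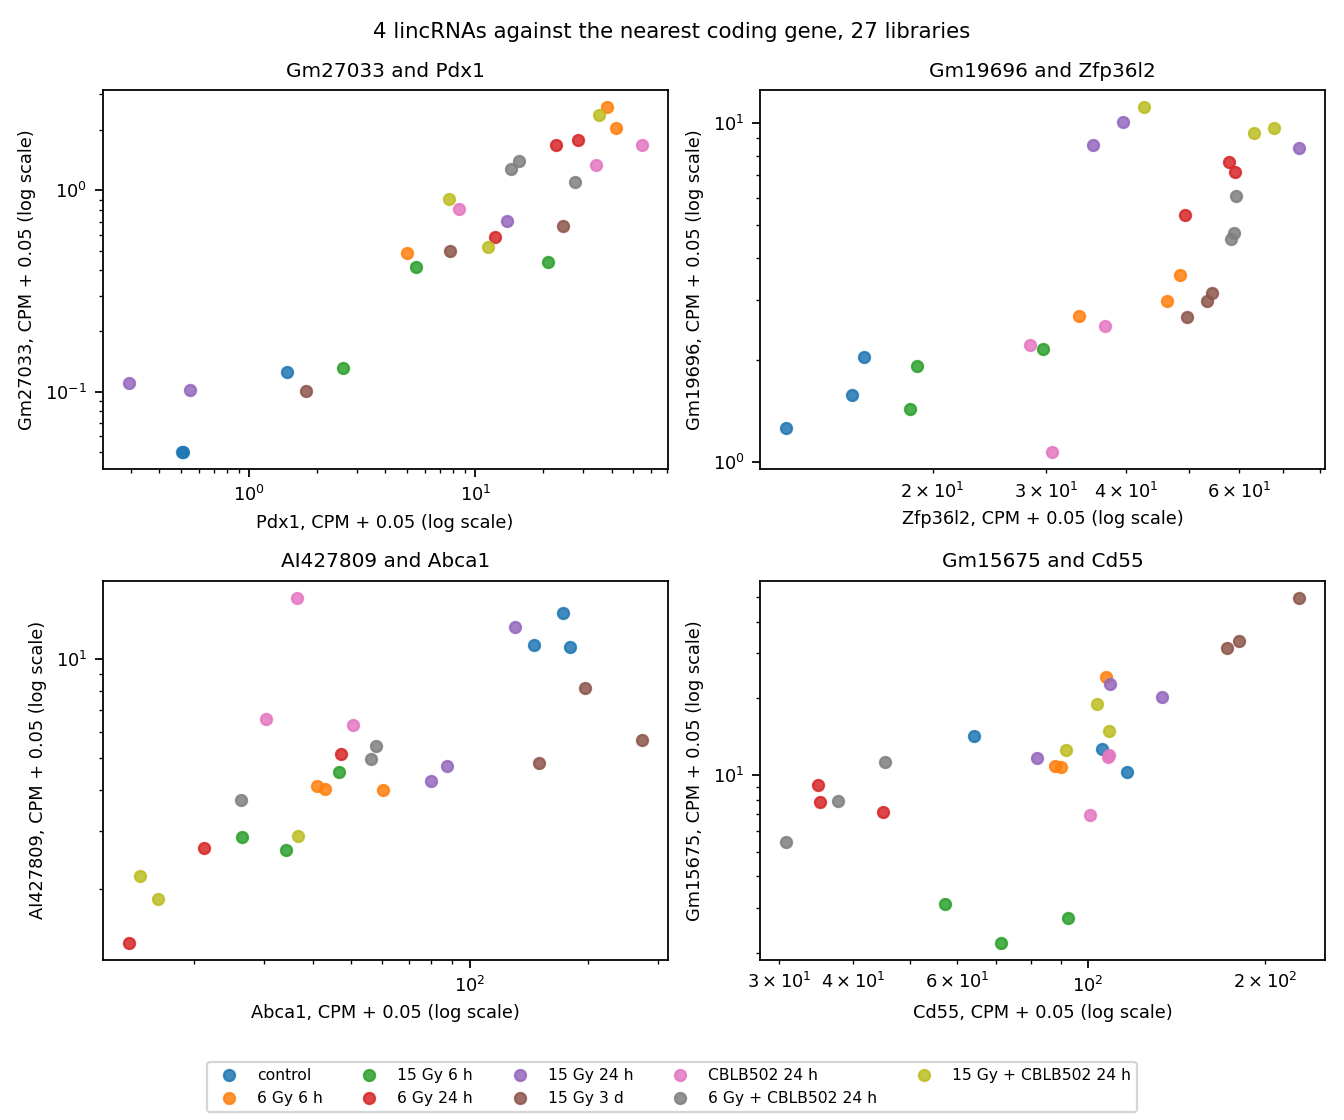
Level of 4 lincRNAs (vertical) against the nearest coding gene (horizontal) in the 27 libraries, both as CPM + 0.05 on log scales and coloured by group. Gm27033 is low where Pdx1 is low; Gm15675 is low in the 15 Gy 6 h libraries at middling Cd55, and both are highest 3 d after 15 Gy.

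Over all 94 members whose nearest coding gene was tested, counts of called neighbours stood as follows. At 6 h after 6 Gy, 25 of the 94 members were called, 15 of their neighbours were called too, and 12 of these pairs moved in the same direction, where 28.4% of all genes were called. For 15 Gy at 6 h the counts were 26, 13 and 9, for 6 Gy at 24 h 21, 11 and 10, and for 15 Gy at 3 d 24, 11 and 10, where 29%, 33% and 29.4% of all genes were called. With CBLB502 added to 15 Gy they were 17, 10 and 8 and to 6 Gy 24, 16 and 14 (16.9% and 37.3% of all genes). In the other comparisons of 2 groups with calls the called neighbours numbered 20 for 43 members in 15 Gy against 6 Gy (43.2%), 10 for 30 in 24 h against 6 h (32.2%), 8 for 19 in 3 d against 24 h (25.3%), 1 for 3 at 15 Gy 24 h (4.94%) and 1 for 6 with CBLB502 alone (5.74%). Neighbouring genes can share reads where they overlap, and these counts are a description.

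Across the 8 comparisons with the controls, which share those controls, 88 of the 128 lincRNAs (68.8%) were called at least once and 40 never; of all genes tested, 73.3% were called at least once. A set of 8 was called in 5 or more: Gm27033 in 7, AW112010, Gm19696, Oip5os1 and 4932422M17Rik in 6 each, and 9130016M20Rik, AI427809 and AI480526 in 5 each. A set of 9 was called higher in one comparison and lower in another, among them Oip5os1, higher in 5 and lower 6 h after 15 Gy. Of the 12 lincRNAs with the highest mean FPKM, 2 were never called in any comparison, Gm10076 (5.17 to 21.0 CPM over all libraries) and Gm42031 (4.63 to 100 CPM), whose libraries differed widely within groups: the control libraries of Gm42031 had 12.2, 12.2 and 87.2 CPM.

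**Figure D4:**
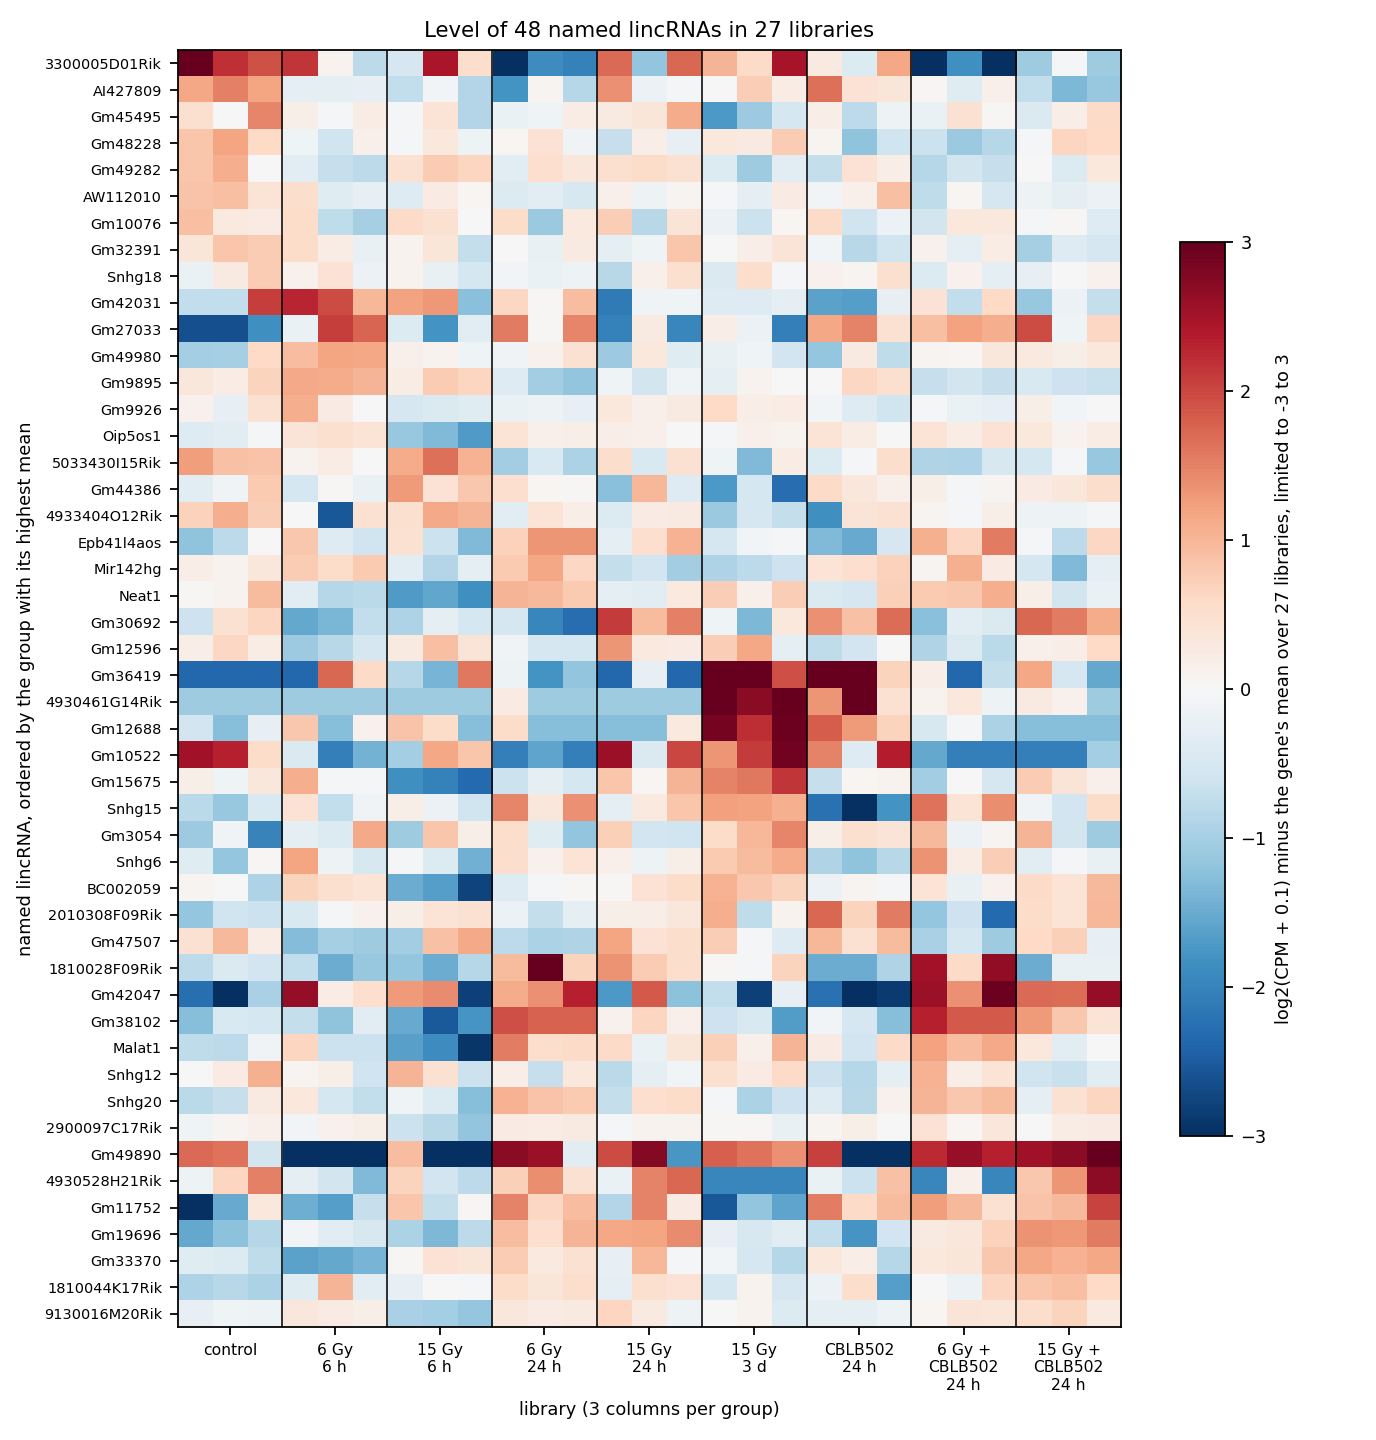
Heat map of 48 named lincRNAs (rows, ordered by the group with their highest mean) in the 27 libraries (columns, 3 per group). Colour gives log2(CPM + 0.1) minus the gene's mean over all libraries, limited to -3 to 3; Neat1, Malat1, Oip5os1, Gm15675 and BC002059 are blue in the 15 Gy 6 h columns.

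**Figure D5:**
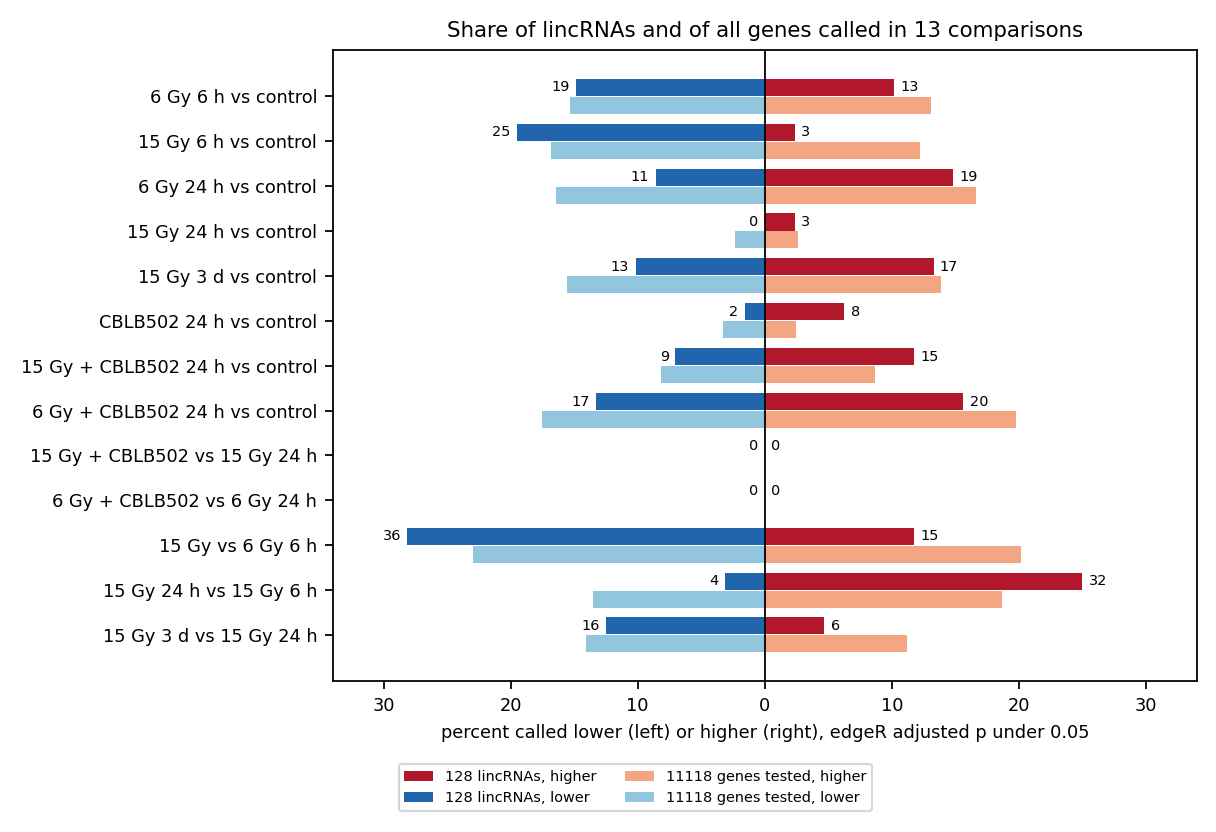
Percent of the 128 lincRNAs (dark bars, with their number) and of all 11118 genes tested (light bars) called lower (left) or higher (right) in 13 comparisons, edgeR adjusted p under 0.05. At 15 Gy 6 h 25 lincRNAs are lower and 3 higher; in the 2 comparisons that add CBLB502 to radiation none is called.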

How the data were processed

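RNA-seq of total RNA from mouse intestine was deposited as 1 table of 27 libraries (9 groups of 3). It holds, per gene, counts and FPKM made by the authors. Per the submitters' processing notes, Bowtie 0.12.2, HISAT2 2.0 and StringTie 1.3.0 were used and the build mm8 is named; no role is stated for any of them. The deposited coordinates equal those of GENCODE vM21 (GRCm38) for 94.2% of matched gene IDs, so GRCm38 is used here. The deposited FPKM reads 0.0001 where the count is 0.

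Genes reaching 1 FPKM in at least 3 libraries were tested (11118 of 55401). Counts were fitted with edgeR 4.0.16 (R 4.3.3) by the quasi-likelihood test with TMM scaling and 9 group means over all 27 libraries; p-values were adjusted by Benjamini-Hochberg over all 11118 genes and called under 0.05. SE is the log2 fold change divided by the square root of F. CPM means counts divided by the TMM-scaled library size in M counts. At these depths (57.4 to 87.1 M counts) 3 counts equal 0.0344 to 0.0522 CPM in a library, which covers counting error only. Alternatives were RLE scaling, no filter, a filter on the mean FPKM, DESeq2 1.42.0, limma 3.58.1 on log2(FPKM + 1) and log2(FPKM + 0.1), a replicate block, the compared groups alone, leaving out the 6 libraries of 6 Gy 24 h with and without CBLB502, and leaving out each library. The fit was tested on simulated data. The searches for microRNAs and promoter motifs left out the members Gm9926, Gm49980, Epb41l4aos and Gm46620.

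The heat map holds the 12 members with the highest mean FPKM and every member of a list of known noncoding RNAs. Called members also qualified where groups did not overlap and the higher group had a mean of at least 1 FPKM. Per comparison, the 3 largest rises and the 3 largest falls among these were added, with the called interactions of the 3 smallest adjusted p. The text describes only part of this set, and not only in the comparison that named a member. Gm42047, 1810044K17Rik, Gm44386, Gm30692, Gm11752, 4933404O12Rik, Snhg12 and Snhg18 are in the heat map but not described. Members outside this set are marked as named after their values were seen. The members and lists were chosen with earlier results of these data known.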

Additional observations from a re-analysis of the deposited data

Results flagged for a closer look

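The effect of CBLB502 on 2010308F09Rik differed between unirradiated intestine and intestine 24 h after 6 Gy: the interaction was -3.30 on the log2 scale (SE 0.66, adjusted p = 0.0313, edgeR quasi-likelihood test with Benjamini-Hochberg adjustment). All 3 libraries with CBLB502 alone were above all 3 controls, and the 6 Gy libraries with and without CBLB502 overlapped. The call was lost without any of 7 single libraries, which are named beside the result above, and also with no filter, with the compared groups alone and with the replicate block.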

How the results depend on the processing

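Of the counts of called lincRNAs under the alternatives, 186 stayed within 1.5 times the reported count and 47 did not; no direction reversed. Of 192 calls of the lincRNAs named here, 89 held under every alternative that tested the gene. Only 155 of the 192 were tested under the mean FPKM filter, which drops members with a mean under 1 FPKM. Leaving out 1 library at a time gave 17 to 29 called for 6 Gy 6 h, 19 to 25 for 15 Gy 6 h, 23 to 32 for 6 Gy 24 h, 1 to 6 for 15 Gy 24 h, 17 to 24 for 15 Gy 3 d, 0 to 10 for CBLB502, 16 to 25 for 15 Gy with CBLB502 and 26 to 37 for 6 Gy with CBLB502, each against control. It gave 0 to 1 for CBLB502 added to 15 Gy, 0 to 0 for CBLB502 added to 6 Gy, 40 to 47 for 15 Gy against 6 Gy, 30 to 38 for 24 h against 6 h, 13 to 21 for 3 d against 24 h, 0 to 0 for the 15 Gy interaction and 0 to 2 for the 6 Gy interaction.

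With the compared groups alone the counts were 18 (6 Gy 6 h), 14 (15 Gy 6 h), 1 (15 Gy 24 h), 16 (15 Gy 3 d), 0 (CBLB502), 18 (24 h against 6 h), 11 (3 d against 24 h) and 0 (6 Gy interaction); fewer libraries then estimate the spread. Limma on log2(FPKM + 1) gave 18 (15 Gy 6 h), 57 (6 Gy 24 h), 6 (CBLB502), 62 (6 Gy with CBLB502) and 1 (15 Gy interaction), and with 0.1 as pseudocount 59, 63 and 1 for 6 Gy 24 h, 6 Gy with CBLB502 and the 15 Gy interaction. DESeq2 gave 12 (15 Gy 24 h), 2 (CBLB502 added to 15 Gy), 1 (15 Gy interaction) and 4 (6 Gy interaction). The mean FPKM filter, which tests fewer genes, gave 24 (6 Gy with CBLB502), 30 (15 Gy against 6 Gy) and 22 (24 h against 6 h). Without a filter the 6 Gy interaction gave 0. Except where a clause names the construction, the cause was not tested.

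Same-numbered libraries of different groups did not deviate together in the median (108 pairs, r -0.262 to 0.248, median 0.006, against -0.002 for different numbers). For 13 of the 27 libraries the best match in another group shared the number. A median cannot exclude that some libraries are paired, and the main fit treats them as unpaired. With the replicate block the counts were 29, 25, 31, 4, 27, 9, 23 and 34 for the 8 comparisons with control in the order above, then 0, 0, 46, 35, 20, 0 and 0, and 14 of the 192 calls were lost. Depth limits the weakest members, whose mean count was as low as 12.4.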
